A study of Mus musculus with 13 samples.

Results

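The T-cell receptor loci are the stretches of the mouse genome from which T cells assemble their antigen receptors. They were examined in whole-genome DNA of 7 populations of GFP+ bone marrow cells from the study of N-Myc leukaemia, with 1 library each. The members are all rows of the deposited single-nucleotide variant (SNV), insertion or deletion (INDEL) and copy number tables that lie in or overlap 3 regions of build mm10. These are the alpha and delta locus Tra/Trd (chromosome 14, 52427967 to 54224198, 1796 kb), the beta locus Trb (chromosome 6, 40891296 to 41558371, 667 kb) and the gamma locus Trg (chromosome 13, 19178042 to 19352343, 174 kb). This rule took 562 of the 1076366 rows of the 7 libraries: 66 SNVs, 493 INDELs and 3 copy number losses. The 2 Mb on each side of the loci held 3684 rows and served as the comparison.

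All mice were C57BL/6, aged 8 to 10 weeks, and the leukaemias carried retroviral N-Myc, while the control is labelled empty and its construct is not described further. The libraries were labelled B-ALL (B220+GFP+), T-ALL (CD3+GFP+), AML (Mac1+Gr1+GFP+) and AUL (B220-CD3-Mac1-Gr1-GFP+), each from 2000000 cells. The others came from 1000000 cells each. M-MPAL was sorted as GFP+Mac1/Gr1+B220-CD3/4/8-. T-MPAL was the fraction GFP+Mac1/Gr1-B220-CD3/4/8+, while Empty control was sorted by GFP+ alone. ALL is acute lymphoblastic leukaemia, AML acute myeloid leukaemia, AUL acute undifferentiated leukaemia and MPAL mixed-phenotype acute leukaemia. No matched normal DNA of an animal was analysed here, so inherited and acquired variants cannot be told apart. Whether a library came from 1 animal or from several is not in the labels.

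A T-cell receptor gene does not exist whole in the germline. In developing T cells the RAG recombinase cuts beside chosen V, D and J segments, and DNA repair proteins join them, so that the DNA between joined segments is removed from the chromosome or, where a segment lies in the opposite orientation, inverted. The delta segments lie inside the alpha locus, between most V segments and the J alpha segments, so that joining a V segment to a J alpha segment removes the delta genes. Myeloid cells keep these loci in germline form as a rule. By the RefSeq table of assembly GRCm38.p6, Tra/Trd holds 136 V, 2 D and 62 J segments and 2 constant genes. Trb holds 35 V, 2 D and 14 J segments and 2 constant genes, and Trg holds 7 V and 4 J segments and 4 constant genes, which makes 270 segments in all.

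The sequences below are INDELs called in the most libraries, at a locus or inside a loss, and were not picked as typical. An annotated repeat held 307 of the 311 INDEL calls in Tra/Trd, 137 of 145 in Trb and 36 of 37 in Trg. Most INDELs changed 2 bases, and changes of 1 base, as in the sequences of Trb, were 14 of its 145 calls. They are given on the strand of the deposited tables in build mm10, as far as the deposited allele reaches. Capitals mark the bases that the alternative allele lacks, except in the fourth sequence, which is the alternative allele, with the inserted base in capitals. The first 2 lie in Tra/Trd, the next 2 in Trb and the last 2 in Trg.
INDEL called in all 7 libraries, chr14:53242668-53242683: aAATAAATGaataaat
INDEL inside the T-MPAL loss, chr14:53983113-53983161: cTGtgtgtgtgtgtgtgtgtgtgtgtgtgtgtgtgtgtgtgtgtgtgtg
INDEL called in all 7 libraries, chr6:41145712-41145717: tCcccc
INDEL called in all 7 libraries, chr6:41465850-41465861: aTttttttttttt
INDEL inside the T-ALL loss, chr13:19193850-19193877: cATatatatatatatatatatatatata
INDEL called in 3 libraries, chr13:19237214-19237244: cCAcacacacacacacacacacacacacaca
The TG repeat inside the T-MPAL loss was called with this allele in AML, AUL and Empty control, and the AT repeat inside the T-ALL loss in B-ALL and Empty control. The CA repeat of Trg was called in M-MPAL, T-MPAL and Empty control.

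**Figure D1:**
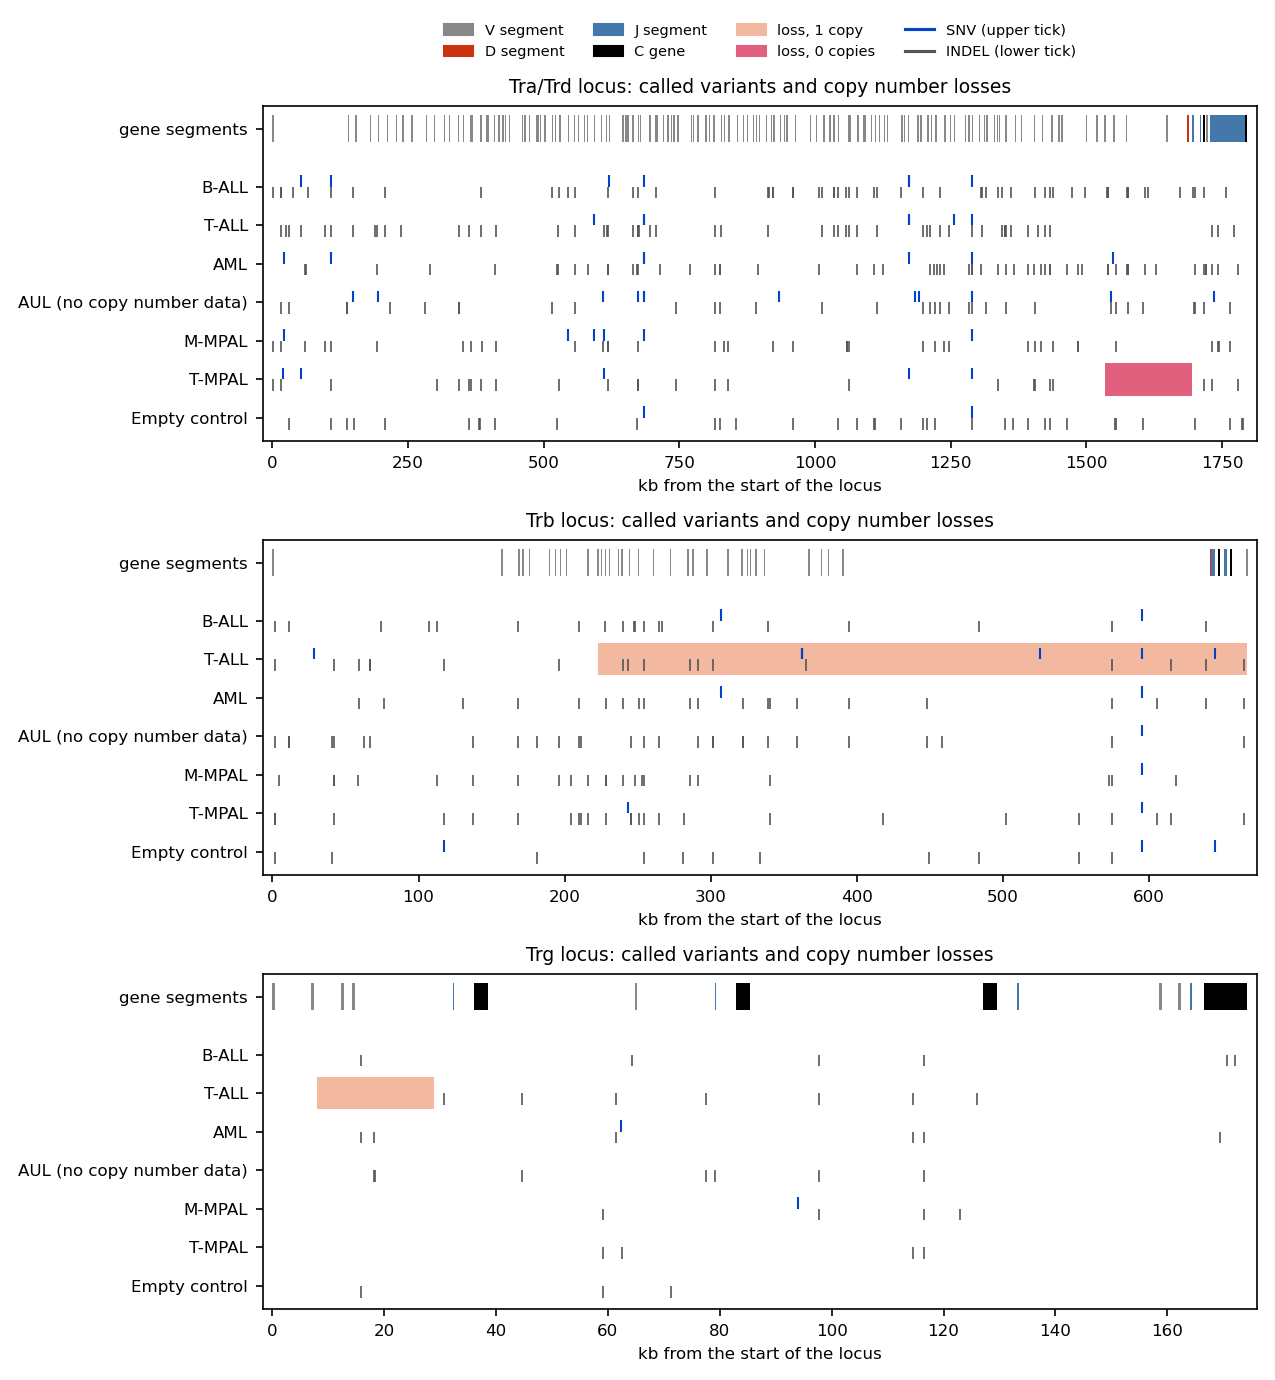
Map of the 3 loci, with the distance from the start of each locus in kb on the horizontal axis. The top track shows V, D and J segments and constant (C) genes, each row below a library with its SNVs (upper ticks) and INDELs (lower ticks), and shaded boxes copy number losses, which were called in T-MPAL at Tra/Trd (161 kb) and in T-ALL at Trb (444.4 kb of the locus) and Trg (21 kb).

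The depth of the libraries was similar. Autosomal variants shared by the 7 libraries (28112) had a median of 44 reads in T-ALL, 39 or 40 in the 5 other leukaemia libraries and 32 in Empty control. INDELs had a median depth of 15 or 16 reads and SNVs of 35 to 41 across the libraries. The copy number table of AUL ended within chromosome 2, so that AUL has no copy number value at these loci. The table of AML ended on chromosome 17, beyond all 3 loci. With 1 library a group there was no replicate, no test between groups was possible, and the intervals given are exact 95% Poisson or Clopper-Pearson intervals, which cover counting error only. Where calls of several libraries are pooled, 1 allele counts once for each, so that those intervals are too narrow. A variant table lists calls alone, so that a library without a call may lack the variant or the reads. In the loci, no call of M-MPAL, T-MPAL or Empty control had fewer than 5 reads. B-ALL, T-ALL, AML and AUL had calls of 1 read. Counts of calls, counts of homozygous calls and call-free stretches thus compare libraries with unlike lowest depths. In DNA of many cells, fewer copies in every cell and a loss in a share of the cells cannot be told apart.

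In T-MPAL, the T-lymphoid fraction of the mixed leukaemia, part of the delta region was lost. FREEC, a program that reads copy number from depth, called 0 copies over 161 kb of Tra/Trd (chromosome 14, 53962001 to 54123000), 8.96% of the locus. The loss held 5 of the 202 segments of the locus (2.48%). Of all 42151 RefSeq genes on chromosomes 1 to 16, which include these segments, 0.0474% lay in a loss of T-MPAL. The 5 were the V segments Trav23, Trdv3 and Trdv4 and both D delta segments, Trdd1 and Trdd2. None of the 62 J segments and neither constant gene, Trdc of the delta chain or Trac of the alpha chain, lay inside.

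The edges of this loss lay close to segments that take part in delta joining. The lower edge lay 398 bp beyond the end of Trdv2-2, a V delta segment that stays outside, with Trav23 as the nearest segment inside at 15152 bp. The upper edge lay between Trdd2, which ended 759 bp inside, and Trdj1, a J delta segment that began 137 bp outside. Copy number calls move in steps of 1 kb, so that these distances are known to about that length, and the sequence of the joined ends was not analysed here.

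The variant tables of T-MPAL held no call inside this loss. AML and B-ALL had 9 calls each there, AUL 5, Empty control 3 and M-MPAL 1. T-ALL also had 0. Of these calls, those with at least 10 reads were 3 each in AML and B-ALL, 5 in AUL, 1 in Empty control and 0 in M-MPAL. Outside the loss T-MPAL kept calls close by: its nearest lower call at position 53865989 had 23 reads, beyond Trav20. The nearest higher call at 54143910, inside the span of Trdc, had 26 reads, of which 10 carried the deletion (38.5%, 20.2 to 59.4). Its call-free stretch of 278 kb between them covered 12 segments, from Trav21-dv12 to Trdj2.

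The 27 calls of the other 5 libraries in this span lay at 17 positions, of which 7 were called in 2 or more libraries. The position called most often was the TG repeat shown above, 5435 bp beyond Trav23, where AML had 6 of 16 reads, AUL 5 of 12 and Empty control 5 of 8. M-MPAL, the myeloid fraction beside T-MPAL, had its 1 call there, a longer deletion in 4 of 9 reads. An insertion at 54004361, 3108 bp beyond Trdv3, was in all reads of AUL (10), AML (5) and B-ALL (3) and was not called in the other 4. Most of these calls were thin: their median depth was lowest in B-ALL (3 reads) and AML (5), and 8 in Empty control, 9 in M-MPAL and 12 in AUL. No position of this span was called in more than 4 libraries, and without a call in T-MPAL or T-ALL the tables give no depth for these libraries there.

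T-ALL had no copy number call at Tra/Trd, but its variant tables held no call over a wider stretch of the same place. Its call-free stretch ran for 298 kb, from 53860408 to 54158886, and covered 20 segments from Trav20 to Traj57. It was the longest at this locus among the 7 libraries, against 278 kb in T-MPAL. The longest of M-MPAL, 176 kb from 53983113 to 54158886, also lay there and covered 13 segments from Trdv3 to Traj57. Those of AML (120 kb), Empty control (155 kb), AUL (171 kb) and B-ALL (177 kb) lay among the V segments. Across the autosomes, 12879 windows of the length of the T-MPAL loss had at least as many calls in the 6 other libraries as this one, and 1 of them (0.00776%) held no call of T-ALL. The same count for T-MPAL was 46 of 13354 windows (0.344%), and in M-MPAL 216 of 13499 windows held 1 call or none (1.60%). This window was not picked independently of the calls, since it is the T-MPAL loss itself. These shares are therefore descriptive and test nothing. Outside this stretch T-ALL had 59 calls in the V region below Trdv2-2, the most of the 7 libraries, and 3 among the J alpha segments, where the others had 1 to 4. Depth of T-ALL within the stretch was not analysed here, since only called positions carry one.

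The rest of Tra/Trd showed calls of all 7 libraries along its length. The V region up to Trdv2-2 (1534 kb) held from 27 calls in T-MPAL to 59 in T-ALL, with B-ALL at 56, AML at 51, M-MPAL at 39, AUL at 36 and Empty control at 32. The stretch from there to Trdv5 (188 kb), a V delta segment that lies beyond the constant gene Trdc, held 13 calls in AML, 12 in B-ALL, 8 in AUL and 4 in Empty control. M-MPAL and T-MPAL had 1 each and T-ALL 0. The order of the libraries in this stretch thus differed from that in the V region, where T-ALL ranked highest.

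T-ALL had lost 1 copy of most of Trb. The loss of 458 kb (chromosome 6, 41114001 to 41572000) covered 444371 bases of the locus (66.6%) and touched 42 of its 53 segments (79.2%). Of all RefSeq genes on chromosomes 1 to 16, 0.145% (61) were touched by a loss of T-ALL. Most of these 61 are the same genes: they include the 42 segments, 8 protein-coding genes of this loss and 2 segments of the Trg loss below. It took 24 of 35 V segments, from Trbv12-1 to Trbv31, both D segments, all 14 J segments and both constant genes, Trbc1 and Trbc2. The 11 segments left outside were V segments from Trbv1 to Trbv11.

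The lower edge lay within the span of Trbv12-1, and the nearest segment wholly inside was Trbv13-1, 2035 bp away. The nearest segment outside was Trbv11, 6697 bp below the edge. The upper edge lay 13629 bp beyond Trbv31, the last segment of the locus, which is in the opposite orientation to the others and beyond the constant genes. The loss therefore ran past the end of the locus, and both D-J-C clusters lay within it. It also held 8 protein-coding genes, among them Try4, Try5, Try10, Prss1, Prss2 and Prss3, which encode trypsinogens, digestive enzymes of the pancreas. None of the other 5 libraries with copy number data had a call in Trb or in the 2 Mb on each side of it.

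Read depth at called positions inside this loss was compared between libraries. FREEC reads the same depth, so that these values are no independent measure of the loss. For each library, depth at a position was divided by the library's autosomal median and then by the median of the same quantity in the other libraries that called the position. At the 3 positions of Trb called in all 7 libraries, which all lie inside the loss, T-ALL had 15 reads at 41145712, 17 at 41465850 and 7 at 41486481. B-ALL had 13, 17 and 14 reads there, AML 22, 20 and 10, and AUL 21, 25 and 11. M-MPAL had 23, 25 and 6 reads, T-MPAL 23, 22 and 9, and Empty control 24, 21 and 7. The relative depth of T-ALL was between 0.598 and 0.662 at all of them, with a median of 0.641. The medians of AML (0.975), T-MPAL (0.989), M-MPAL (1.08), AUL (1.20) and Empty control (1.23) were higher, while B-ALL, with no copy number call, stood at 0.705 (0.570 to 1.56). The lowest value of M-MPAL (0.640) lay within the range of T-ALL, while those of the other 4 lay above it. Empty control also had a median of 1.22 over autosomal sites and 1.26 in the Trb flanks, so that its 1.23 is no rise. The autosomal medians of the other libraries were 0.965 to 1.00.

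With every position inside the loss that at least 1 other library called, a setting chosen after seeing the data, the values were much the same. T-ALL had a median of 0.648 over 11 positions (0.389 to 1.69) and B-ALL 0.714 over 13 (0.352 to 2.02). The other medians were higher, at 1.01 for T-MPAL (13 positions), 1.05 for M-MPAL (8), 1.11 for AUL (14), 1.12 for AML (20) and 1.30 for Empty control (8). In the 2 Mb flanks T-ALL was at 1.03 over 157 positions and B-ALL at 0.986 over 115. The depth of both libraries was thus lower inside the span than around the locus. In the part of Trb outside the loss T-ALL had 0.888 over 5 positions (0.676 to 1.03) and B-ALL 0.690 over 4 (0.660 to 1.32), so that in B-ALL the lower depth was not limited to the span lost in T-ALL. The ranges of all 7 libraries overlapped inside the loss.

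**Figure D2:**
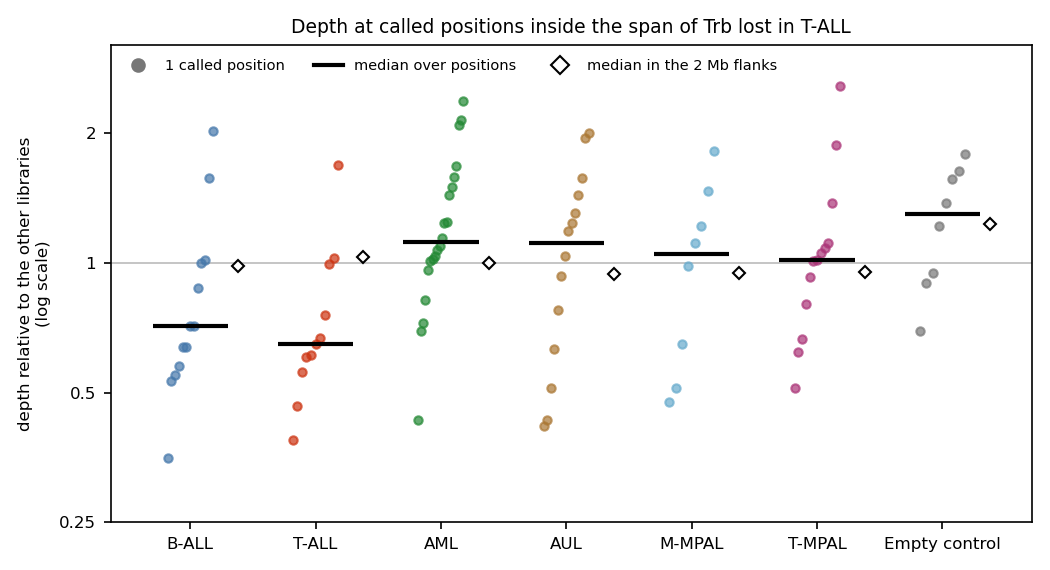
Depth at called positions inside the span of Trb that T-ALL lost, relative to the other libraries (log scale), with points for positions, bars for their medians and diamonds for the median in the 2 Mb flanks. The medians of T-ALL (0.648) and B-ALL (0.714) lie below those of the other libraries (1.01 to 1.30), while single positions overlap.

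T-ALL still had calls with both alleles inside the loss. Of its 17 calls there, 6 were called homozygous, and of 11 with at least 10 reads 3 had an alternative read share of 0.9 or above, with a median share of 0.273. In the other libraries 2 to 5 calls inside the span reached 0.9, of 7 to 16 with at least 10 reads. The counts of homozygous calls were 6 of 16 in B-ALL and 6 of 23 in AML, and 3 in each of the others. Among the T-ALL calls with both alleles were 3 neighbouring SNVs, which lay 4598, 4504 and 4411 bp before Trbv27, a V segment. They had 4 of 15, 4 of 20 and 4 of 19 reads with the alternative allele, and no other library called them. The count of T-ALL calls at 0.9 or above thus stood within the range of the other 6 libraries, of which AUL has no copy number value here.

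An SNV at 41536592, between Trbj1-7 and the constant gene Trbc1, was called in T-ALL and Empty control alone. In T-ALL all 14 reads carried the alternative allele (100%, 76.8 to 100), and in Empty control 5 of 17 did (29.4%, 10.3 to 56.0). The intervals of the 2 libraries do not overlap. The SNV was singled out after its values were seen.

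At Trg, T-ALL had lost 1 copy of 21 kb (chromosome 13, 19186001 to 19207000), 12.0% of the locus. The loss held 2 of the 15 segments (13.3%), the V segments Trgv6 and Trgv5, against the same 0.145% of all genes, which includes them and the Trb segments. Its lower edge lay 494 bp beyond Trgv4, a V segment that stays outside, and its upper edge 3342 bp before Trgj1, the J segment of the first cluster. Trgv7 and Trgv4 lay below the loss, and the other J segments and all 4 constant genes above it.

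Calls were too few to measure depth at this loss. T-ALL, M-MPAL and T-MPAL had no call inside, B-ALL and Empty control 1 each, and AML and AUL 2 each. These calls lay at 3 repeats beyond Trgv5. At the AT repeat shown above B-ALL had 5 of 15 reads with the deletion, Empty control 3 of 15 and AML 3 of 13 with an insertion. The nearest call of T-ALL, 9 reads deep at position 19208761, lay between the upper edge and Trgj1. T-MPAL had a call-free stretch of 232 kb from below the locus to 19237214, which spans the 6 segments from Trgv7 to Trgc1, with no copy number call there. The locus is short, and no position in it was called in all 7 libraries.

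No loss or gain was called inside any of the loci in B-ALL, AML, M-MPAL or Empty control, and T-MPAL had none at Trb or Trg. The share of all genes on chromosomes 1 to 16 in a loss was 0.0119% in B-ALL, 0.00237% in AML, 0.0261% in M-MPAL and 0.0214% in Empty control. Few genes of these chromosomes thus lay in a loss, though the losses themselves were not all few. They numbered 15 in M-MPAL, 18 in Empty control and 19 in T-MPAL, beside 6 each in B-ALL and T-ALL and 1 in AML. Losses on other chromosomes are not in these counts. The T-ALL loss at Trb was the only call inside a locus that reached into a flank. Calls wholly within the 2 Mb flanks were found beside Tra/Trd alone, all below the locus. AML had gains of 2, 2 and 21 kb, M-MPAL of 2 and 31 kb, T-MPAL of 1 kb and Empty control of 3 kb. Empty control also had a loss of 26 kb to 0 copies (51494001 to 51520000).

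Called variants were sparser in Tra/Trd than beside it. Over the 7 libraries the locus held 357 calls, 199 per Mb (179 to 220), and the flanks 341 per Mb (323 to 360), which gave a ratio of 0.583 (0.517 to 0.655). SNVs had a lower ratio, 0.406 (0.290 to 0.558), than INDELs, 0.623 (0.547 to 0.707), though their intervals overlapped. These pooled calls repeat positions over libraries, so that their intervals are too narrow. The 46 SNV calls lay at 25 positions and the 311 INDEL calls at 170. In the flanks 252 SNV calls lay at 90 positions and 1112 INDEL calls at 494. The ratio was lowest in T-MPAL at 0.418 (0.273 to 0.620) and highest in B-ALL at 0.708 (0.532 to 0.932), with AUL at 0.483, Empty control at 0.499, M-MPAL at 0.597, AML at 0.640 and T-ALL at 0.677. All 7 intervals lay below 1. Segmental duplications held 60.9% of the SNV calls in this locus and 54.0% of the INDEL calls, against 44.4% and 11.9% in its flanks.

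In Trb and Trg the intervals of the ratio included 1, though not under every setting. Trb held 163 calls, 244 per Mb (208 to 285) against 287.5 (271 to 305), a ratio of 0.850 (0.717 to 1.00). By library the ratio ran from 0.641 in Empty control to 1.23 in T-MPAL, and each interval included 1. T-ALL, with 1 copy of most of the locus, had 25 calls there, between the 14 of Empty control and the 29 of AUL. Trg held 39 calls, 224 per Mb (159 to 306) against 290.5 (274 to 308), a ratio of 0.770 (0.545 to 1.06). Each library had 3 to 7 calls in Trg. With calls of 10 or more reads alone, the ratio of Trb was 0.797 (0.653 to 0.965), and against 1 Mb on each side that of Trg was 0.716 (0.504 to 0.990), so that both intervals then lay below 1. Both pool the 7 libraries and count 1 allele once for each, so that they are too narrow.

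**Figure D3:**
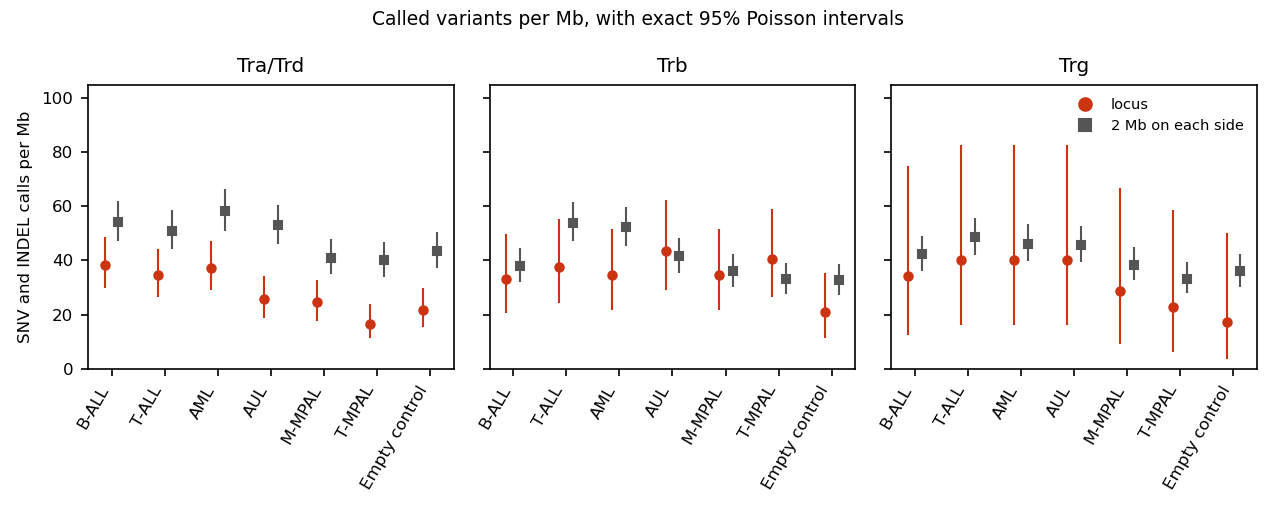
SNV and INDEL calls per Mb in each locus (circles) and in the 2 Mb on each side (squares), by library, with exact 95% Poisson intervals. Tra/Trd lies below its flanks in all 7 libraries, at 16.7 calls per Mb in T-MPAL against 40 beside it.

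Few calls touched the coding segments themselves. The V, D, J and C spans make up 4.55% of Tra/Trd, 2.98% of Trb and 10.8% of Trg, and held 6 of 357, 3 of 163 and 3 of 39 calls. The segments concerned were Trav7d-6, Trdc, Trbv11, Trbv12-2 and Trgc4, where the spans of constant genes include introns. In Trav7d-6, a V alpha segment, an SNV was called in M-MPAL in 9 of 9 reads and in T-ALL in 12 of 14. None of the 559 variant calls was annotated as changing a protein, but the deposited annotation labels the calls inside these segments as intergenic, so that a change in a segment could not show there. The deposited annotation placed all 46 SNVs and 308 of the 311 INDELs of Tra/Trd, and all 39 calls of Trg, between genes. In Trb it placed 15 INDELs and 1 SNV in introns and 10 INDELs in introns of noncoding RNAs.

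Most INDELs changed a short tandem repeat by 1 unit. In Tra/Trd 214 of 311 changed 2 bases (68.8%), in Trb 104 of 145 (71.7%) and in Trg 29 of 37 (78.4%), close to the 67.3%, 73.1% and 79.2% of their flanks. Units of CA or TG made up 59.5% of the INDELs of Tra/Trd, 46.2% of those of Trb and 43.2% of those of Trg, against 61.4%, 58.3% and 65.0% beside them. Among the 46 SNV calls of Tra/Trd, 21 were C-to-T changes, counted with their complements (45.7%, against 20.2% in the flanks). These calls repeat alleles over libraries, and by distinct allele C-to-T changes were 9 of 25, beside 23 of 90 in the flanks. Among the 18 calls of Trb, 8 were C-to-A changes (44.4%, against 14.9%) and 6 C-to-T changes (33.3%, against 19.1%). The SNV at 41486481, called in all 7 libraries, made up 7 of the 8, and by distinct allele C-to-A changes were 2 of 10 and C-to-T changes 4 of 10, beside 5 and 16 of 61 in the flanks.

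Positions called in all 7 libraries show how alleles compare at equal sites. In Trb the 3 such positions had nearly all reads on the alternative allele in every library, from 94.1% in T-ALL at 41465850 upward. In Tra/Trd an SNV at 53716386, 374 bp before Trav7-6, lay in a segmental duplication and ranged widely. T-ALL had it in 29 of 29 reads (100%, 88.1 to 100) and AUL in 31 of 31 (100%, 88.8 to 100). Empty control had 15 of 19, AML 12 of 22, M-MPAL 8 of 16, T-MPAL 13 of 28 and B-ALL 7 of 23 (30.4%, 13.2 to 52.9). The intervals of T-ALL and AUL lie above those of AML, M-MPAL, T-MPAL and B-ALL and overlap that of Empty control.

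The 8-base deletion at 53242668, shown above, lay between Trav12n-3 and Trav13n-2 and ranged less. It was in 20 of 45 reads of B-ALL (44.4%), 8 of 37 of T-ALL (21.6%, 9.83 to 38.2), 17 of 49 of AML, 23 of 44 of AUL (52.3%, 36.7 to 67.5) and 9 of 24 of M-MPAL. T-MPAL had 4 of 15 and Empty control 5 of 19 reads. The intervals of T-ALL and AUL overlap slightly, and those of all others overlap each other.

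**Figure D4:**
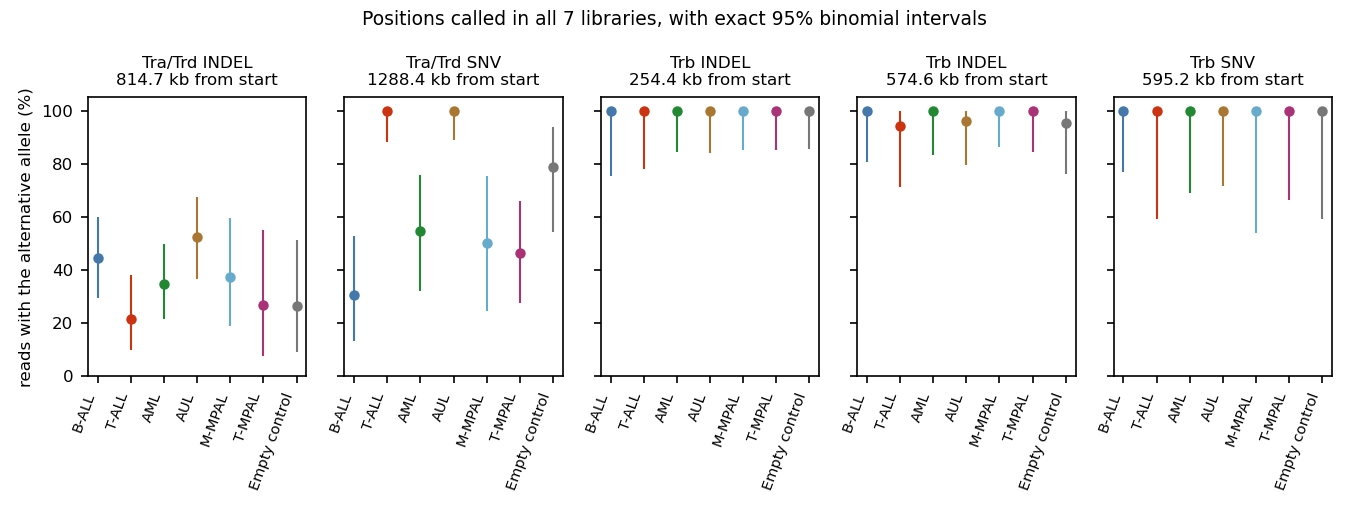
Reads with the alternative allele, in percent of depth with exact 95% binomial intervals, at the 5 positions called in all 7 libraries, by library. The 3 positions of Trb are at 94.1% or above in each library, while the SNV of Tra/Trd runs from 30.4% in B-ALL to 100% in T-ALL and AUL.

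Alternative read shares over all SNVs with at least 10 reads had a median of 0.37 in Tra/Trd (35 calls) and in its flanks (208), and of 0.294 in Trb (13) against 0.42 (100). A share of 0.9 or above was reached by 8.57% (1.8 to 23.1) of the SNVs in Tra/Trd and 16.8% (12.0 to 22.6) of those beside it, and by 30.8% (9.09 to 61.4) against 24.0% (16 to 33.6) for Trb. Both pairs of intervals overlap. Among INDELs the share was 1.89% (0.516 to 4.76) in Tra/Trd against 8.34% (6.57 to 10.4) beside it, and these intervals do not overlap. Trb had 13.1% (7.34 to 21.0) against 8.72% (6.86 to 10.9), and Trg 0 of 33 INDELs, which allows up to 10.6%, against 2.76% (1.74 to 4.14). Of these 5 comparisons, INDELs of Tra/Trd alone had an interval apart from that of their flanks. However, 1 allele called in several libraries counts once for each, so that the intervals are too narrow to settle a difference. The flanks of Tra/Trd had 6 INDEL alleles called in all 7 libraries, and the locus 1.

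Private variants, covered by 10 or more reads and called with that allele in a single library, numbered 96 in Tra/Trd, 34 in Trb and 18 in Trg. AML had the most (24), followed by M-MPAL (23), AUL and Empty control (22 each), B-ALL (21), and T-ALL and T-MPAL (18 each). As a share of the members with at least 10 reads these were 35.0% (23.1 to 48.4) in B-ALL against 25.1% of all such calls of its genome, 29.5% (18.5 to 42.6) in T-ALL against 28.5%, and 35.3% (24.1 to 47.8) in AML against 26.7%. AUL had 37.3% (25 to 50.9) against 28.1%, M-MPAL 40.4% (27.6 to 54.2) against 24.9%, T-MPAL 33.3% (21.1 to 47.5) against 24.2% and Empty control 52.4% (36.4 to 68.0) against 26.9%. The background lay below the interval in M-MPAL and Empty control, and within it in the other 5 libraries. This background is the whole genome, where SNVs are a larger part of all calls. The shares were not compared with those of the flanks. With the loci pooled, private variants per Mb were fewer than in the flanks in every library. M-MPAL had 8.72 per Mb against 10.4 in the flanks, and Empty control 8.34 against 11.5. The loci differed when taken singly. Over all libraries Tra/Trd had 53.4 per Mb against 75 in its flanks, and Trb 51.0 against 81. Trg went the other way, at 103 against 84.25. At Trb, M-MPAL alone had more than in the flanks, at 12.0 against 8.5. Whether the higher shares are particular to the loci was thus not tested. Only 4 private variants of Tra/Trd, 4 of Trb and 1 of Trg lay outside annotated repeats.

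Private SNVs were few, 18 in all, of which AUL had 6, all in Tra/Trd, and T-ALL 5. In the flanks of the 3 loci AUL had 23 and T-ALL 24 of 82, shares near those in the loci. At Tra/Trd alone AUL had 6 of 11, beside 6 of 30 in its flanks, and whether these differ was not tested. The private variants of AUL with the most alternative reads were SNVs near V alpha segments: 16 of 32 reads (50%) at 53611413, 3523 bp before Trav5-2, 12 of 27 at 53619422, between Trav12-2 and Trav12-3, and 11 of 25 at 52623092, 10 bp beyond Trav5-1. M-MPAL had an SNV in Trg at 19272020 in 11 of 31 reads (35.5%, 19.2 to 54.6) and another in Tra/Trd at 53112099 in 11 of 46, 6755 bp beyond Trav6n-5. Its next was an insertion in Trg at 19301034 in 8 of 21 reads. T-ALL had an SNV in Trb at 40919514 in 10 of 25 reads (40%, 21.1 to 61.3), between Trbv1 and Trbv2 and outside its loss.

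The best covered private variants of the other libraries were INDELs in repeats. T-MPAL had deletions in 10 of 18 reads at 19294500 in Trg and in 10 of 26 at 54143910 in Trdc, and at these positions 4 and 3 other libraries had calls with another allele. Its next was in 9 of 28 reads at 41308825 in Trb. B-ALL had 9 of 25 reads at 52635094, between Trav5-1 and Trav6-1, and 6 of 21 and 6 of 24 reads in Trg, the latter in the span of Trgc4. AML had 9 of 16 reads at 52838317, beyond Trav7d-5, 9 of 22 at 41339238 in Trb, and 7 of 20 at 53716536, 224 bp before Trav7-6. T-ALL had 7 of 18 and 7 of 24 reads at 52811725 and 53778032, near Trav10d and Trav3-4. Other libraries had calls with another allele at each position given for AML, and at 53778032 of T-ALL. The same held for B-ALL at 52635094 and at the first of its positions in Trg. Empty control had 9 of 30, 8 of 18 and 8 of 17 reads at 52810419, 53791983 and 54214407, the last beyond Traj5. Empty control, which is no leukaemia, thus had private INDELs of similar read support.

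Genes that act on these loci were looked at in 3 lists: V(D)J recombination (16 genes), the T-cell receptor complex and its proximal signal (15), and T-cell factors acting on the loci (15). None of the 46 genes had a private protein-altering variant with at least 10 reads, against 0.962% of all 21631 protein-coding genes. In losses lay 2 genes, both in a loss of B-ALL to 1 copy on chromosome 19 (37842001 to 53044000): Dntt, the terminal transferase that adds untemplated bases at V(D)J joins, and Poll, a DNA polymerase of end joining. They were named after their values were seen, since the call is over 5 Mb long. The count of 2 among 46 stands beside 7.54% of all protein-coding genes of chromosomes 1 to 19 and X that lay in a loss of any of the 6 libraries. The tables of AML and AUL end before chromosome 19.

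In gains of under 5 Mb to 3 copies lay 4 of the 46 list genes, beside 7.8% of all protein-coding genes in such gains of any of the 6 libraries, a share near the list's. Prkdc, the kinase of DNA end joining on chromosome 16, lay in gains of B-ALL and AML, and Runx1, a transcription factor of blood formation on the same chromosome, in other gains of both. Xrcc6, a subunit of the Ku complex that holds DNA ends, and Il7r, the interleukin-7 receptor on chromosome 15, lay in gains of both M-MPAL and T-MPAL. No gene of the T-cell receptor complex list, with the CD3 chains, Cd4, Cd8a, Lck and Zap70 among its 15, lay in such a call.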

How the data were processed

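Whole-genome DNA was read as 150-bp pairs from 350-bp fragments at a planned 30x, per the labels' protocols. The submitters' processing notes name BWA and mm10 without versions. SNVs and INDELs were called with samtools, copy number with FREEC, and ANNOVAR added annotation, per the file headers and names. The deposited variant tables give a Phred-scaled quality score, of at least 20.0, with depth and alternative reads per call. Copy number rows, as deposited, hold whole copies and region sizes in steps of 1 kb. Caller versions and filters: not given in the sources used here.

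Loci and segments came from the RefSeq table of GRCm38.p6, and 725 of 727 exonic SNVs (99.7%) of the tables lay inside their gene's span there. Rows were counted as deposited, and depth, alternative share and private variants were computed with Python 3.11.15, pandas 2.3.3, numpy 2.4.6, scipy 1.17.1 and matplotlib 3.10.9. A private variant had at least 10 reads. The scripts were tested on simulated data. The 6 integration site samples were not analysed here.

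The members, gene lists and settings were chosen with earlier results of these data known. The text names the segments next to each edge of a loss, the 3 private variants with the most alternative reads per library, and list genes in copy number calls under 5 Mb. Genes with names of the Gm type were counted and not named.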

Additional observations from a re-analysis of the deposited data

How the results depend on the processing

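With calls of 50 kb or more alone, the T-ALL loss at Trg left 0 bases and 0 segments, since it spans 21 kb, and the losses at Trb and Tra/Trd kept their extent. The ratio of calls in Tra/Trd to its flanks was 0.415 with a quality of at least 100, and that of Trg 0.429 (0.116 to 1.11); the cause was not tested. Without segmental duplications the ratios of Tra/Trd, Trb and Trg were 0.320, 0.804 (0.672 to 0.956) and 0.474 (0.302 to 0.709), and without repeats that of Tra/Trd was 0.261. These filters take away calls but not the length they lie in. Duplications hold more of the calls in each of the 3 loci than in its flanks, so that the ratios without duplications had to be lower. In Trb this comes from the INDELs, most of its calls (11.0% against 3.77%), while its SNVs go the other way (5.56% against 16.3%). Without repeats that of Trb was 1.69 (0.84 to 3.19), with 6 of the 13 calls in T-ALL, and without T-ALL, a setting chosen after seeing the data, 1.05 (0.397 to 2.37). The relative depth of Trb in T-ALL was 0.673 from SNVs alone, which leave 1 position. It was 0.692 and 0.732 over positions called in at least 1 or 2 other libraries, settings chosen after seeing the data. That of Tra/Trd in T-MPAL was 0.81 over 2 positions (0.391 to 1.23), and 1.27 from SNVs alone, which leave 1 of them. Both positions lay outside the T-MPAL loss, so that these values give no depth inside it. Private variants in Tra/Trd, Trb and Trg numbered 27, 9 and 9 with at least 20 reads, 4, 4 and 1 without repeats, and 3, 3 and 0 outside segmental duplications with a quality from 100 up, 4 or more alternative reads and a share from 0.2 up. Counted by position, whatever the allele, 63 were private in Tra/Trd and 11 in Trg. Of the other values recomputed, 62 for the main comparisons and 262 for single libraries stayed within their interval or within 1.5 times the count, 148 for single libraries moved further, and none changed direction as a called value. No paired analysis was possible because each group has 1 library, and for the same reason no replicate could be left out. Depth limits both kinds of variant in the loci, with medians of 17 reads for SNVs and 14 for INDELs in Tra/Trd and 14 for both in Trb.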
